A study of Mus musculus with 6 samples.

Results

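The 10 genes described here belong to the NF-kB system: the transcription factor subunit genes Nfkb1, Nfkb2, Rela and Relb, the feedback genes Nfkbia, Nfkbiz, Tnfaip3 and Birc3, and the adhesion molecule genes Icam1 and Vcam1. They were named as a list and found on the arrays through the RefSeq accession of each probe set. All 10 were measured, among 19932 genes in all, and where a gene has several probe sets, the one with the highest 6-array mean stands for it. No measured difference enters the rule, but the list was drawn up with earlier results of these arrays known. The arrays profiled untreated chondrocytes, the cells that make cartilage, of wild-type ICR mice, an outbred strain. The nasal group holds 3 samples of nasal septum chondrocytes from embryonic day 17.5, and the rib group holds 3 samples of rib chondrocytes from postnatal day 1. The samples of a group are labelled as biological replicates, and how many animals went into each is not given in the sources used here. Because each site was sampled at its own age, the parts of site and age in any difference cannot be told apart. Each gene was compared as nasal minus rib on the log2 scale, so that 1 unit is a 2-fold difference. In such bulk samples, fewer cells of a type and less RNA per cell cannot be told apart.

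NF-kB factors are dimers of Rel-family proteins. In resting cells inhibitor proteins of the IkB family hold most of them in the cytoplasm. Signals from receptors for tumour necrosis factor, interleukin-1 or microbial products activate a kinase complex that marks the inhibitor for destruction, and the dimers then enter the nucleus and bind kB motifs in DNA. Among the genes they switch on are their own inhibitors, which end the response, and adhesion molecules that let leukocytes attach. In cartilage the pathway is best known from arthritis models, where interleukin-1 and tumour necrosis factor make chondrocytes produce matrix-degrading enzymes.

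The regions just before the genes were read from RefSeq (GRCm38.p6), as windows of 300 bases that run from 250 bases before the annotated start to 50 after it. Windows were at hand for 6 of the 10 genes (Nfkb2, Rela, Nfkbia, Tnfaip3, Birc3 and Icam1), with 3 windows for Nfkb2 and 2 for Tnfaip3. They were searched on both strands for the consensus kB motif, where overlapping matches were allowed. Matches were found for 3 of these 6 genes, Nfkb2, Nfkbia and Tnfaip3. Of all 27025 genes with such a window, 9.55% held a match. A looser form, in which the third guanine may also be an adenine, matched the same 3 genes and 12.6% of all genes. A match describes letters and is no evidence of binding, and the absence of one says only that this window lacks those letters.

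The windows of the 3 genes with a match follow, for Nfkb2 and Tnfaip3 the window with the most, together with that of Icam1, which had the largest difference of the 10 genes and holds no match. Capitals mark the kB matches. In the Nfkb2 window at chr19:46304487-46304786 (plus strand), 2 overlapping matches begin at bases -39 and -38 and another begins at -11 from the start site. In the Nfkbia window at chr12:55492598-55492897 (minus strand), 1 match begins at -29. In the Tnfaip3 window at chr10:19015361-19015660 (minus strand), matches begin at -125 and -12. The Icam1 window lies at chr9:21015690-21015989 (plus strand).
Nfkb2: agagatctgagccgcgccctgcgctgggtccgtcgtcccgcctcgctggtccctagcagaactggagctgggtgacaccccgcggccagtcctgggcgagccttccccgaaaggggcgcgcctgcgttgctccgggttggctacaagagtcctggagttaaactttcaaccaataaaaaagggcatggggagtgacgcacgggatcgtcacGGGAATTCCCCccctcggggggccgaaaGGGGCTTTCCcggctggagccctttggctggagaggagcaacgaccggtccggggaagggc
Nfkbia: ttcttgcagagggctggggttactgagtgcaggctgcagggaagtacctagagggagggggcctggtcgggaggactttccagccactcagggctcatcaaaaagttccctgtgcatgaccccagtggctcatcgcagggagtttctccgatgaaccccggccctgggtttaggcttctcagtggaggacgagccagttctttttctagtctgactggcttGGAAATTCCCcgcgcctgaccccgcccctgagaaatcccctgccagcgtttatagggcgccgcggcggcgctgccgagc
Tnfaip3: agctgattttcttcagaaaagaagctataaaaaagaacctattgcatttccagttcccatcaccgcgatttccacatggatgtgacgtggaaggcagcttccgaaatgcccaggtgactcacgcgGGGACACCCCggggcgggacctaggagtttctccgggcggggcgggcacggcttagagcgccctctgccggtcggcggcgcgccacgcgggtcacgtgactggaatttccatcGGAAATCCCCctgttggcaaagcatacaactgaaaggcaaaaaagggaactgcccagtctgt
Icam1: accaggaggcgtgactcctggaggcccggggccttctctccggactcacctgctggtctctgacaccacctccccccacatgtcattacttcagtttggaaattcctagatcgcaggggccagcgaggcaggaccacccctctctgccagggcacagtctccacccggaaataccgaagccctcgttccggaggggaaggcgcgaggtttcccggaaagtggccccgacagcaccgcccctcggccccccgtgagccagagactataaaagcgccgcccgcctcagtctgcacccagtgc

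The arrays carried comparable signal. Median intensities ran from 216 to 261 on nasal arrays and from 209 to 234 on rib arrays, over 28451 probe sets. Samples of a group correlated at 0.987 to 0.993 and samples of different groups at 0.957 to 0.968. The 12 chondrocyte markers, among them Col2a1 and Acan, summed to intensities of 98608 to 100935 in nasal and 93344 to 102034 in rib, and the groups overlapped. Only 1 of the 12 passed the test, Sox9, which was higher in rib (-0.28, SE 0.09, limma adjusted p = 0.0491). That call ended with median centring, in the fit of every probe set, with the replicate block and without any 1 sample (limma adjusted p from 0.00275 to 0.146 over its alternatives), and cyclic loess gave -0.43. Precision is limited throughout by the number of arrays, 3 a group.

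All 10 genes had higher mean levels in nasal than in rib, where 61.8% of all genes had, and 8 of them passed the test (limma adjusted p under 0.05 over all genes). None had a higher mean in rib, and at an unadjusted limma p under 0.05 the nasal count was 9. For comparison, 28.5% of all genes passed, 13.8% as higher in nasal and 14.7% as higher in rib. The nasal and rib values did not overlap for 9 of the 10 genes, all higher in nasal, against 45.7% of all genes in either direction and 24% as higher in nasal. These shares include dim genes, whereas the 10 genes had a median level at percentile 80.5 of all genes. Shares among genes of like level are not given here. The median log2 difference of the 10 was 0.86, which lay 0.75 above the median of all genes (0.11). The adhesion genes differed by about 4-fold, Birc3 and Tnfaip3 by 2.81-fold and 2.20-fold, and the factor subunits by 1.52-fold to 1.92-fold.

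**Figure D1:**
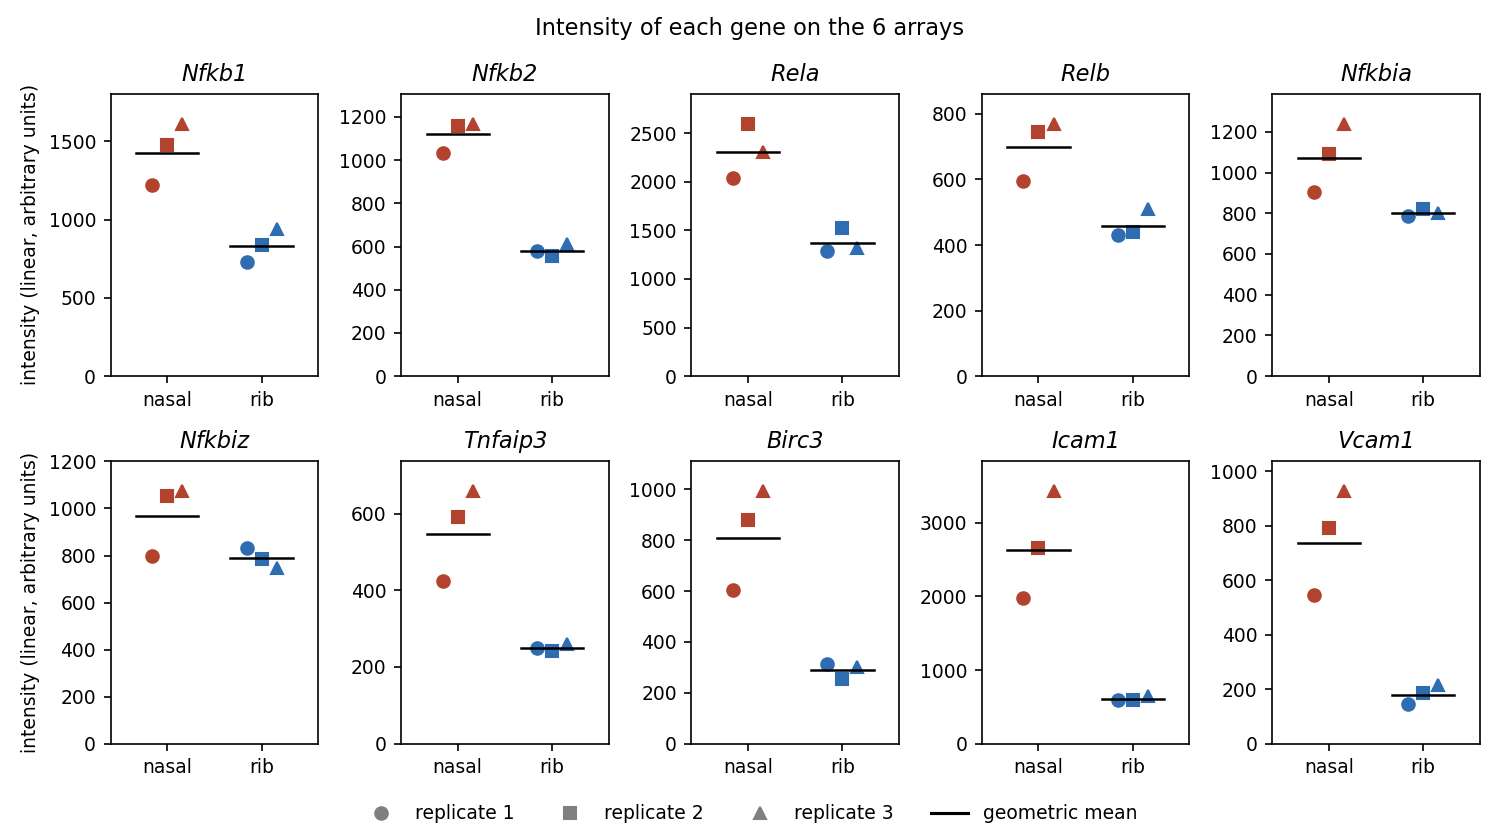
Linear intensity of each of the 10 genes on the 3 nasal and 3 rib arrays (points, with a symbol for each replicate number and a bar at the geometric mean). The groups overlap only for Nfkbiz, and nasal replicate 1 is the lowest nasal array in every panel. Levels of different genes cannot be compared, since each probe set responds differently.

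Among the DNA-binding subunits, Rela encodes p65, which carries the activating domain of the classical dimer. Its intensities were 2034, 2596 and 2310 in nasal and 1289, 1524 and 1323 in rib. The nasal values all lay above the rib values, and the log2 difference was 0.74 (SE 0.12, limma adjusted p = 0.00495). Nfkb1 encodes p105, the precursor of the p50 subunit that pairs with p65. It had 1220, 1480 and 1613 in nasal and 727, 836 and 942 in rib. Here too the groups were apart, with a difference of 0.78 (SE 0.14, limma adjusted p = 0.00763).

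The other pair of subunits forms the dimer of the noncanonical branch. Nfkb2 encodes p100, the precursor of p52, and 2 of its 3 kB matches in the window shown overlap each other. It read 1035, 1158 and 1168 in nasal and 579, 554 and 613 in rib. Its arrays lay close together within each group, and its log2 difference of 0.94 had the smallest error of the 10 genes (SE 0.10, limma adjusted p = 0.000755). Its other 2 probe sets gave 0.94, with values identical to those used, and 0.95.

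Relb, the partner of p52, stood at 595, 745 and 770 in nasal and 432, 440 and 509 in rib. The groups did not overlap, and the difference was 0.61 (SE 0.13, limma adjusted p = 0.0138). This call ended when nasal replicate 2, rib replicate 1 or rib replicate 2 was left out, with limma adjusted p of 0.0549, 0.0567 and 0.0558, in a range of 1.53e-05 to 0.0567 over the 16 alternatives. Rel, the fifth subunit gene and not one of the 10, had 1497, 1904 and 2013 in nasal and 1773, 1546 and 1259 in rib. Its groups overlapped, and it did not pass (0.24, SE 0.17, limma adjusted p = 0.303).

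The feedback genes all had higher means in nasal. Tnfaip3 and Birc3 passed the test, while Nfkbia and Nfkbiz did not. Nfkbia encodes IkB-alpha, the inhibitor that is remade first after activation. It had 902, 1092 and 1239 in nasal and 788, 821 and 802 in rib, so that the groups were apart by a small margin. Its log2 difference of 0.41 lay just short of the threshold (SE 0.13, 95% interval 0.11 to 0.71, limma adjusted p = 0.0515). It passed after quantile normalization (0.49, limma adjusted p = 0.00779) and without nasal replicate 1 (0.53, limma adjusted p = 0.00830). Over all 16 alternatives it passed in 7 (adjusted p from 0.00102 to 0.158), with the sign the same in each.

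Nfkbiz encodes IkB-zeta, a nuclear family member that acts as a cofactor for some inflammatory genes. It was the only 1 of the 10 whose groups overlapped, with 799, 1052 and 1073 in nasal and 832, 787 and 748 in rib. Nasal replicate 1 fell among the rib values. The difference did not pass (0.29, SE 0.13, 95% interval -0.02 to 0.61, limma adjusted p = 0.147), but it did without nasal replicate 1 (0.43, limma adjusted p = 0.0155). Of its other 2 probe sets, 1 gave 0.36 (limma adjusted p = 0.0649) and the other 0.38 (limma adjusted p = 0.0434) in a fit of every probe set. Nfkbiz passed in 5 of the 16 alternatives (limma adjusted p from 0.0155 to 0.366).

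Tnfaip3 encodes A20, an enzyme that edits ubiquitin chains and shuts the pathway off upstream of the kinase. It read 424, 590 and 658 in nasal and 248, 241 and 259 in rib. Every nasal array lay well above the narrow rib range, and the log2 difference was 1.14 (SE 0.17, limma adjusted p = 0.00301). Its second probe set gave 1.02. Birc3 encodes cIAP2, a ubiquitin ligase of the receptor complexes that also protects cells from death. It had 606, 881 and 992 in nasal and 313, 255 and 300 in rib. The groups were apart and the difference was 1.49 (SE 0.19, limma adjusted p = 0.00187).

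The adhesion genes had the largest differences of the 10. Icam1 encodes a surface protein that binds leukocyte integrins of the beta-2 class. Its intensities were 1978, 2663 and 3426 in nasal and 587, 592 and 646 in rib. The rib arrays lay close together, and the lowest nasal array was above all of them. The log2 difference was 2.11 (SE 0.19, 4.32-fold, limma adjusted p = 0.000530), which placed Icam1 at rank 39 of 19932 genes by difference towards nasal.

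Vcam1 encodes the ligand of the integrin alpha-4 beta-1. It had 545, 792 and 926 in nasal and 147, 185 and 215 in rib. The groups were again apart, with a difference of 2.03 (SE 0.22, 4.09-fold, limma adjusted p = 0.00100) and rank 47. The 95% intervals of Icam1 (1.65 to 2.57) and Vcam1 (1.50 to 2.56) lay above those of all 4 subunit genes, whose upper ends ran from 0.92 to 1.17. The difference between these genes was not tested.

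**Figure D2:**
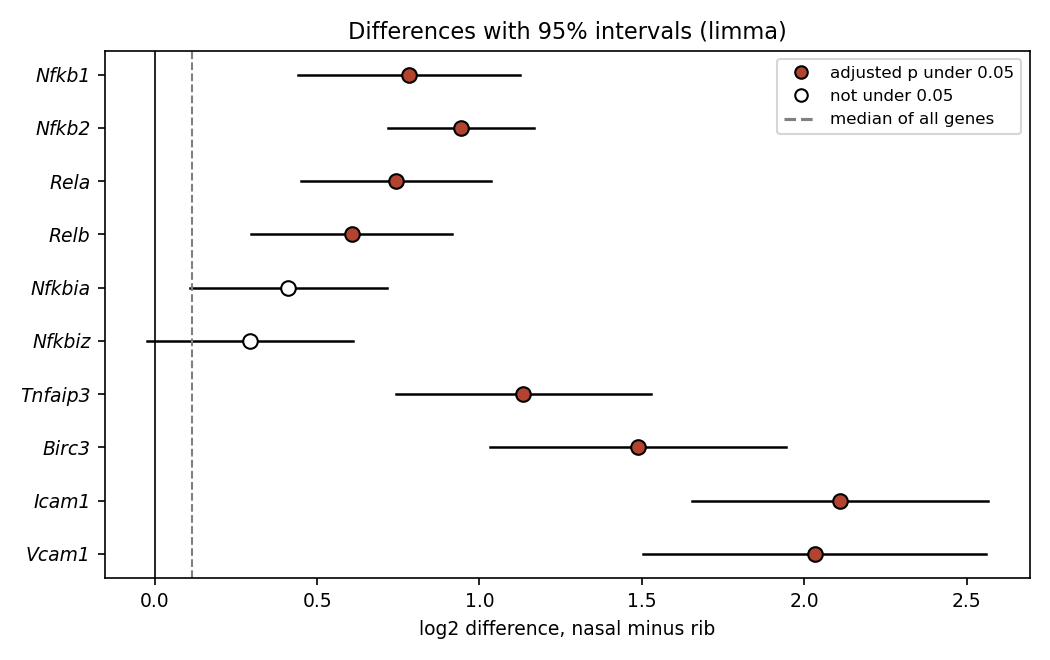
Log2 difference (nasal minus rib) of each of the 10 genes with its 95% interval from limma, filled where the adjusted p was under 0.05. The dashed line is the median of all genes (0.11). Icam1 and Vcam1 lie near 2, the 4 subunit genes between 0.61 and 0.94, and Nfkbia and Nfkbiz lowest.

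Within the nasal group the 10 genes varied together. Nasal replicate 1 had the lowest of the 3 nasal values for all 10, where it was the lowest for 22.1% of all genes and for 40.3% of the genes at or above the median level. Its deviation from the nasal mean ran from -0.11 (Nfkb2) to -0.43 (Vcam1) on the log2 scale. Nasal replicate 3 was highest for 9 of the 10, Rela being the exception. The rib arrays showed no such common order. The SD over nasal arrays was larger than that over rib arrays for 10 of 10 genes, against 65.0% of all genes, and the median SD of the 10 was 0.23 in nasal and 0.10 in rib.

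Nasal replicate 1 also stood apart in the whole data set, with the highest 25th percentile of intensity (140, against 87.3 to 108 on the other arrays). It remained the lowest nasal array for all 10 genes after quantile normalization, cyclic loess and median centring. Without it, 10 of the 10 genes passed, with Icam1 at 2.31 and Vcam1 at 2.25. The part of this array's raised dim signal in the lower values of the 10 genes was not tested.

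**Figure D3:**
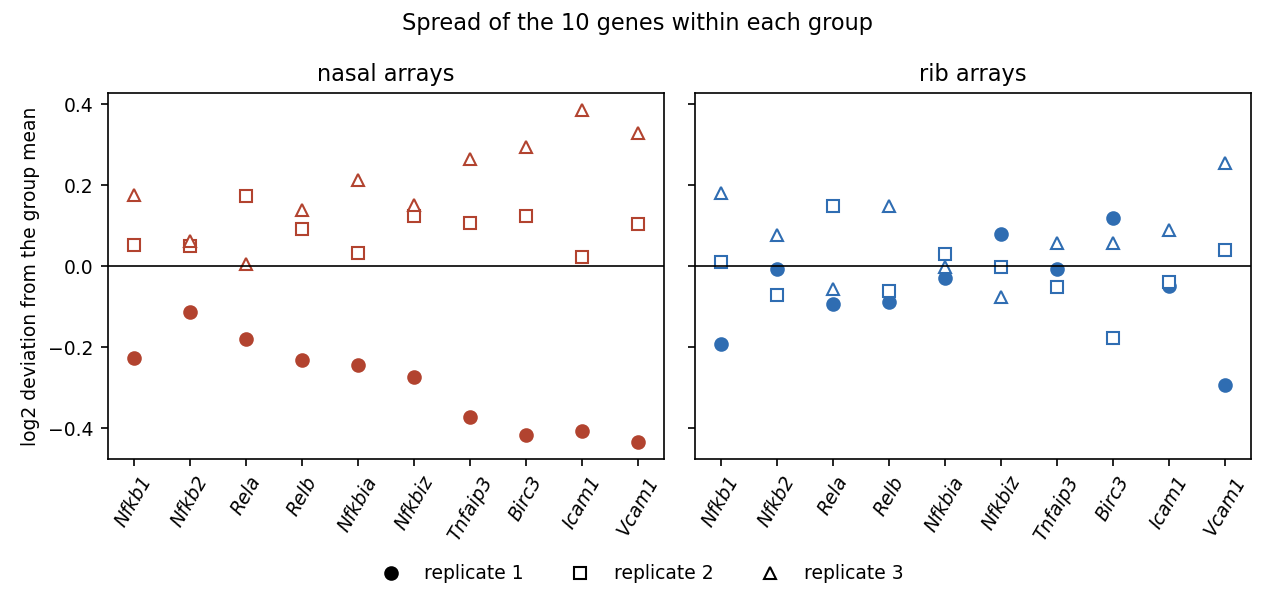
Log2 deviation of each array from the mean of its own group, for the 10 genes. Filled circles are replicate 1. Nasal replicate 1 lies below 0 for every gene, at -0.11 to -0.43, while no rib array lies on 1 side of 0 for all 10 genes.

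Icam1 and Vcam1 had similar profiles over the 6 arrays. By distance between log2 profiles centred on their own means, the genes most like Icam1 were Cd274, which encodes the immune checkpoint ligand PD-L1 (distance 0.26, r = 0.995), Fabp4, a fatty acid binding protein (distance 0.27, r = 0.995), and Vcam1 (distance 0.34, r = 0.992). Those most like Vcam1 were Icam1, Cd274 (distance 0.43, r = 0.986) and Sult1e1, which encodes a sulfotransferase of estrogens (distance 0.46, r = 0.987). These values describe 6 arrays in 2 groups, so any gene with a difference of that size towards nasal will score high. The log2 differences of Cd274, Fabp4 and Sult1e1 were 2.07, 2.14 and 2.21. Sult1e1 is dim: an offset of 50 lowered its difference to 1.01, and both filters on dim genes removed it. The stricter of these filters also removed Cd274, whose difference ran from 1.68 to 2.24 over its alternatives.

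Around the 10 genes, 125 other genes of the pathway were grouped by role. The test called 47 of them higher in nasal and 13 of them higher in rib, and their median difference was 0.26, which lay 0.15 above that of all genes. The classical targets held 20 of these 47 nasal calls, while receptors, adaptors and kinases went both ways. These lists were drawn up with earlier results known, and their counts are descriptions beside the shares of all genes given above.

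Of 13 ligand genes, limma called 4 higher in nasal and 0 in rib (median 0.24). At an unadjusted p under 0.05 these counts were 4 and 1. They were the interleukin-1 family members Il18 (0.83, SE 0.09, limma adjusted p = 0.000851) and Il33 (0.68, SE 0.09), the osteoclast factor Tnfsf11, which encodes RANKL (0.63, SE 0.12), and the lymphotoxin gene Ltb (0.41, SE 0.11, limma adjusted p = 0.0275). Il33 differed by less, 0.41, when the arrays were quantile normalized, by 0.42 under cyclic loess and by 0.40 when 50 was added to each intensity, and both filters on dim genes removed it. Ltb did not pass after quantile normalization (0.20) or cyclic loess (0.21), with trend and robust variance, with the replicate block or without nasal replicate 2 or any 1 rib sample (limma adjusted p from 0.0121 to 0.131 over its alternatives). The stricter filter on dim genes removed Il18 and Ltb. Over its alternatives the difference of Il18 ran from 0.63 to 0.86. The main inducers did not pass. Tnf had 166, 148 and 145 in nasal and 128, 160 and 165 in rib. Its groups overlapped and its difference was 0.03 (SE 0.13, limma adjusted p = 0.882). Il1b differed by 0.07 (SE 0.16, limma adjusted p = 0.765), again with overlapping groups. Both are dim, Tnf at percentile 36.5 and Il1b at percentile 20.9 of the levels of all genes. The sign stayed the same in 10 of 15 alternatives for Tnf and in 9 of 14 for Il1b. No detection calls were used, so whether they were above background is not known.

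The 18 receptor genes were divided, with 5 called higher in nasal and 4 in rib (median -0.01). The signalling receptor for interleukin-1, Il1r1, had 2630, 3281 and 2500 in nasal and 1151, 1060 and 996 in rib. The groups were far apart, and it had the largest difference of the receptor list (1.38, SE 0.13, limma adjusted p = 0.000562). Its lowest nasal array was replicate 3, unlike that of the 10 genes. Cd40, a receptor that feeds the noncanonical branch (1.16, SE 0.12), and Tlr2, a receptor for bacterial lipoproteins (0.85, SE 0.21, limma adjusted p = 0.0232), were also higher in nasal. The Tlr2 call ended with the replicate block and without nasal replicate 2 or 3 or rib replicate 2 or 3, with adjusted p from 0.00247 to 0.0752 over its alternatives in limma. Higher in rib were Tlr4, the endotoxin receptor (-0.97, SE 0.11, limma adjusted p = 0.00101), the lymphotoxin receptor Ltbr (-0.49, SE 0.09) and Ngfr, the low-affinity neurotrophin receptor (-0.48, SE 0.10), and the last lost its call without rib replicate 2 or 3. Tlr4 is dim: its nasal values of 83.3, 82.7 and 71.5 lay below the 25th percentile of every array. Its difference ran from -1.21 to -0.67 over its alternatives, and the stricter filter on dim genes removed it.

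Of 30 adaptors and kinases, 7 were higher in nasal and 7 in rib (median -0.01). Bcl10, an adaptor (1.00, SE 0.10), Birc2, the neighbour and paralog of Birc3 (0.92, SE 0.11), and the kinase gene Map3k8 (0.68, SE 0.11) led the nasal side. Malt1, the protease that binds Bcl10 (-0.82, SE 0.10), the interleukin-1 receptor kinase Irak1 (-0.71, SE 0.10) and Rbck1, a subunit of the linear ubiquitin ligase (-0.59, SE 0.08), led the rib side. So the partners Bcl10 and Malt1 went in opposite directions. The kinase genes that phosphorylate IkB, Ikbkb (-0.13, SE 0.09) and Chuk (0.15, SE 0.10), did not pass, with limma adjusted p of 0.284 and 0.291, though Chuk passed after cyclic loess (0.26, limma adjusted p = 0.0467, in a range of 0.0467 to 0.701). Ikbkg, the regulatory subunit of their complex, was higher in rib (-0.36, SE 0.09, limma adjusted p = 0.0283). Its call ended with the replicate block and without nasal replicate 2 or 3 or rib replicate 2 or 3 (limma adjusted p from 0.00346 to 0.109 over its alternatives).

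Of 17 other subunits and inhibitors, limma called 7 higher in nasal and 0 in rib (median 0.38), and 9 and 0 at an unadjusted p under 0.05. Nfkbie, which encodes IkB-epsilon, had 335, 412 and 475 in nasal and 136, 149 and 158 in rib. These groups were apart, and the difference of 1.45 had a limma adjusted p of 0.000707 (SE 0.14). Tnip3, which encodes a partner of A20, differed by 1.69 (SE 0.17), or by 1.04 with an offset of 50, and both filters on dim genes removed it. Its values were 124, 149 and 164 in nasal and 36.0, 50.5 and 49.5 in rib, with the rib values below the 25th percentile of every array. The difference of Tax1bp1, another partner of A20, was 0.74 (SE 0.14).

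The 13 other adhesion genes had 4 calls towards nasal and 1 towards rib (median 0.34). Selp, the P-selectin of endothelium and platelets (1.13, SE 0.16), and the immunoglobulin-family genes Ncam1 (0.94, SE 0.08) and Alcam (0.82, SE 0.11) were higher in nasal. Selp is dim: its rib values of 85.9, 75.4 and 83.6 lay below the 25th percentile of every array, and its highest value, 221, was in nasal replicate 1. Its difference ran from 0.80 to 1.28 over its alternatives, and the stricter filter on dim genes removed it. Jam2, a junctional adhesion molecule, was higher in rib (-0.84, SE 0.10). Icam2 (0.06, SE 0.12) and Sele, the E-selectin induced by NF-kB in endothelium (0.46, SE 0.22), did not pass (limma adjusted p = 0.724 and 0.153).

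Of 34 other classical targets, 20 were higher in nasal and 1 in rib (median 0.60). The chemokine gene Cxcl10 (2.84, SE 0.31), the prostaglandin E synthase gene Ptges (2.46, SE 0.11) and Mmp3, a stromelysin (2.30, SE 0.15), had the largest differences. The rib exception was Ptgs2, the inducible cyclooxygenase (-0.81, SE 0.15, limma adjusted p = 0.00795). The enzyme that acts after it, encoded by Ptges, thus moved the other way.

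**Figure D4:**
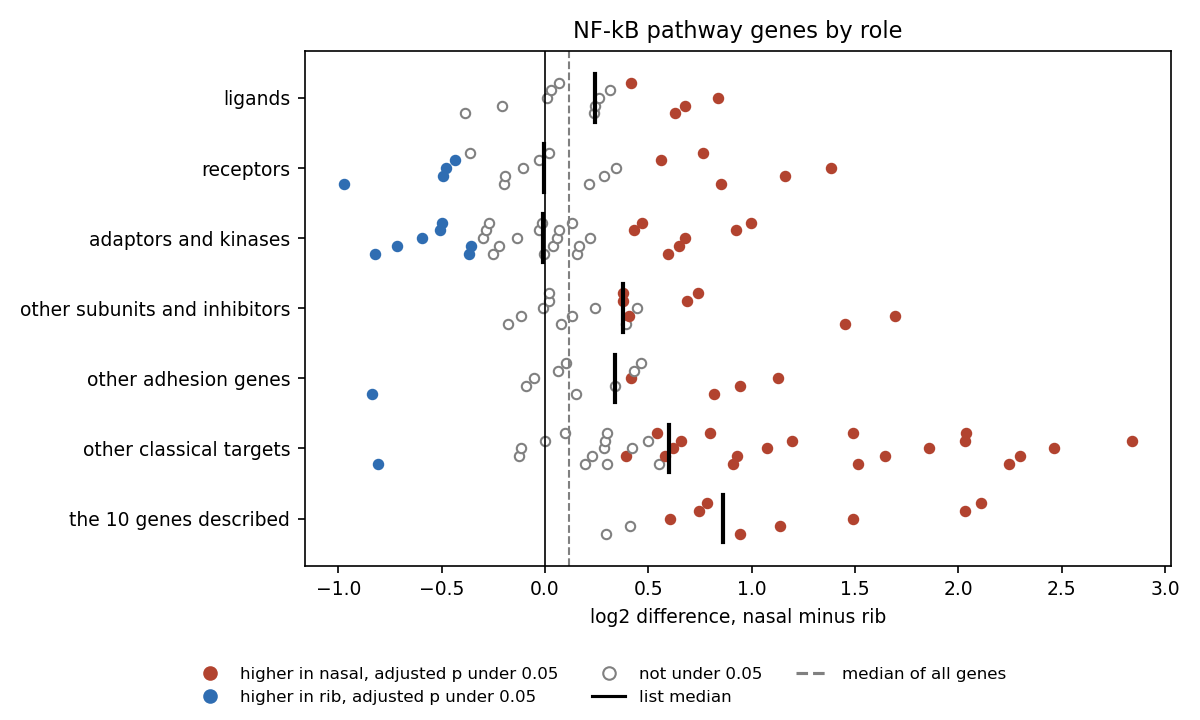
Log2 difference (nasal minus rib) of 125 other NF-kB pathway genes by role and of the 10 genes described, 1 point a gene (vertical offsets within a row only separate points). Filled points passed limma at an adjusted p of 0.05, black bars are list medians and the dashed line is the median of all genes. Classical targets reach 2.84, while receptors, adaptors and kinases lie on both sides of 0.

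Icam1 and Vcam1 are also made by endothelium and other cells, so markers of those cells were read on the same arrays. All 10 endothelial markers had higher means in nasal, where 61.8% of all genes had, and 2 passed, Cdh5 (1.05, SE 0.22, limma adjusted p = 0.0116) and Emcn (1.30, SE 0.19, limma adjusted p = 0.00325). Of all genes, 13.8% passed as higher in nasal. The median difference of the endothelial markers was 0.40, against 0.11 for all genes. Cldn5 (0.02, SE 0.22) and Esam (0.04, SE 0.13) lay below the median of all genes, and the other markers lay above it. Emcn is dim: its rib values of 57.5, 67.9 and 69.5 lay below the 25th percentile of every array. Both filters on dim genes removed it, and its difference ran from 0.88 to 1.47 over its alternatives. The stricter of these filters also removed Cdh5. The summed intensities of the 10 endothelial markers were 2425, 1832 and 1792 in nasal and 1340, 1454 and 1705 in rib. The sum was highest in nasal replicate 1, the nasal array in which the 10 genes were lowest. That array also had the raised dim signal given above, and its sums were the highest for the macrophage, granulocyte, lymphocyte and epithelial markers too. The part of dim signal in these sums was not tested. Pecam1 had 230, 152 and 198 in nasal and 140, 137 and 146 in rib (0.43, SE 0.16, limma adjusted p = 0.0792), and it passed with the filter at the 25th percentile and without nasal replicate 2 (limma adjusted p from 0.0211 to 0.196 over its alternatives). The part of endothelium in the differences of Icam1 and Vcam1 was not tested.

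Of 9 measured macrophage markers, 0 passed limma and 1 had an unadjusted p under 0.05. All 9 had higher means in nasal, where 61.8% of all genes had. Their median difference was 0.29, against 0.11 for all genes. They summed to 911 to 1320 in nasal and 789 to 969 in rib. Of 8 granulocyte markers, 1 passed, Ltf, with 435, 131 and 176 in nasal and 89.5, 82.0 and 69.1 in rib (1.43, SE 0.41, limma adjusted p = 0.0382). Nasal replicate 1 was far the highest, and without it the difference was 0.93. The Ltf call ended with trend and robust variance and without nasal replicate 3 or any 1 rib sample (limma adjusted p from 0.00536 to 0.106 over its alternatives). The granulocyte sums were 827 to 1362 in nasal and 710 to 908 in rib. None of 7 lymphocyte markers passed limma, and 1 had an unadjusted p under 0.05 (sums of 720 to 1091 in nasal and 715 to 801 in rib). In each of these 3 lists the groups overlapped and nasal replicate 1 had the highest sum. No detection calls were used, so whether any of these markers was above background is not known, and the part of such cells in the differences was not tested.

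Among the remaining cell types, 1 of 10 fibroblast and perichondrium markers was higher in nasal and 3 in rib, with sums of 25979 to 28129 in nasal and 25908 to 31237 in rib. Skeletal muscle markers summed to 1363 to 1661 in nasal and 1962 to 2409 in rib, and 2 of 8 were higher in rib. Of 8 epithelial markers, 1 was higher in nasal and 1 in rib, and the sums overlapped (1777 to 2353 in nasal and 1817 to 2136 in rib). Of 5 measured erythroid markers, 1 was higher in rib, and the sums were 964 to 1699 in nasal and 1606 to 1752 in rib.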

How the data were processed

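Total RNA was isolated with Trizol and hybridised to Affymetrix whole-transcript arrays, as the labels' protocols state. For the 6 arrays the authors deposited a table of linear intensities. RMA is named, without a version, in the submitters' processing notes. The background correction and the build were not given in the sources used here. The mean of each array after trimming 2% of probe sets at each end was 500, but quartiles differed, so the distributions had not been made equal.

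Probe sets were named by their RefSeq accession through a table of mouse RefSeq genes (GRCm38.p6). Of 28451 probe sets, 24935 matched 1 symbol and 3516 none. Where several probe sets named 1 gene, that with the highest mean log2 value was kept, which left 19932 genes. Of the marker genes, 3 could not be matched.

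The nasal minus rib difference of log2 intensity, with no pseudocount, was tested across all genes with limma 3.58.1 (lmFit and eBayes) in R 4.3.3, two-sided, with Benjamini-Hochberg adjustment over all genes and a threshold of 0.05. SE and 95% intervals come from limma. The fit was tested on simulated data. An exact permutation test of 3 against 3 samples cannot go below 0.1, so none was used.

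The members and lists were chosen with earlier results of these data known. Besides the 10 genes, up to 3 genes per direction with the largest passing difference were named in each pathway list. Rel, Ltb, Tnf, Il1b, Ikbkb, Chuk, Ikbkg, Icam2 and Sele, and the markers named, were chosen after their values were seen. For likeness, 3 genes were named for each of the 2 members with the largest difference. Alternatives were quantile normalization, cyclic loess, median centring, filters on dim genes, an offset of 50, trend and robust variance, other probe set rules, a replicate block and leaving out each sample. Levels were ranked among all genes, or set against array quartiles, only to tell bright genes from dim ones. Otherwise no level of 1 gene was set against that of another.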

Additional observations from a re-analysis of the deposited data

How the results depend on the processing

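All 10 genes kept a positive sign under all 16 alternatives, and 7 of them, Nfkb1, Nfkb2, Rela, Tnfaip3, Birc3, Icam1 and Vcam1, passed in each. Between 8 and 10 of the 10 passed when all samples were used, and 7 to 10 when 1 sample was left out, with 0 higher in rib throughout. Over the fits without 1 sample, genes called higher in nasal numbered 1639 to 2596 and in rib 1827 to 3168, against 2746 and 2937 with all samples. Both counts were lowest without rib replicate 2, and rib calls were 1953 without nasal replicate 2. Pathway genes higher in nasal ran from 38 to 47 there and those higher in rib from 8 to 17, the lowest without rib replicate 3. The cause of these shifts was not tested. Quantile normalization and cyclic loess gave medians of all genes of -0.01 and 0.00, against 0.11 as deposited, and under both all 10 genes passed.

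The deviations gave no sign that the replicate numbers pair the samples. Same-numbered deviations correlated at -0.02, 0.22 and -0.28, and differently numbered ones at -0.37 to 0.38. With 3 arrays a group, these values cannot show that pairing was absent. With the replicate block 8 of the 10 genes still passed, with 1939 nasal and 1964 rib calls over all genes. Among the genes named, the block ended the calls of Tlr2, Sox9, Ltb and Ikbkg (limma adjusted p of 0.0581, 0.127, 0.0787 and 0.0781 with the block). A test on dim genes is limited by background, and no detection calls were used.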
